A study of Homo sapiens with 12 samples.

Results

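The 8 genes described here encode secreted inflammatory factors and members of the NF-κB family: the chemokines CXCL8, CXCL1 and CCL2, the cytokines IL6 and IL11, the subunit genes NFKB1 and NFKB2, and NFKBIZ. They were picked by symbol, and all 8 were found among the 6777 genes measured in every library. They were chosen with the RNA changes of these same libraries known, so their RNA differences between treatments are given as a description with no test. Ribosome footprints came from separate libraries and are tested, except for NFKBIZ, which may have been chosen for its footprint values. Footprint values may also have been known when others of the 8 genes were chosen. Their footprint p-values and counts are therefore not independent evidence. Transcripts (RNA-seq) and ribosome-protected mRNA fragments (ribosome profiling) were measured in MDA-MB-231 cells, an established line from a human triple-negative breast cancer. The AZD0095 groups received 10 nM AZD0095, an inhibitor of the lactate exporter MCT4, for 4 h, and the DMSO groups received the solvent for 4 h. Both assays had 3 libraries for each treatment, or 12 altogether, and every footprint lysate of both treatments had also been exposed to cycloheximide, which holds ribosomes on mRNA. Whether libraries of a group came from separate cultures is not stated in the labels, and p-values therefore reflect library-to-library spread, which may be technical.

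NF-κB proteins are dimeric transcription factors held inactive by inhibitors of the IκB family and released when receptors for inflammatory signals are engaged. NFKB1 and NFKB2 encode precursors that are cut into DNA-binding subunits, and NFKBIZ encodes IκBζ, a nuclear member of the IκB family that acts on a subset of NF-κB targets, IL6 among them in mouse macrophages. Many inflammatory cytokine genes carry NF-κB sites in their promoters, and their mRNAs are often short-lived. Triple-negative breast cancer cells are known to secrete CXCL8, which attracts neutrophils, and IL6, which signals through the receptor subunit gp130.

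Values are FPKM, a read level per gene length and library size, which can be compared between genes per length. Footprint values of many genes were whole multiples of a shared step, and these gave 141122, 217366 and 501351 implied reads in AZD0095 libraries and 123859, 107087 and 192324 in DMSO libraries, a mean 2.03 times as deep with AZD0095. For the RNA libraries no depth could be recovered. Of 7 genes expected in MDA-MB-231 cells, among them VIM, CD44 and AXL, all 7 were listed, and 0 of 8 leukocyte, 0 of 4 fibroblast and 0 of 3 endothelial markers were listed. Of 8 epithelial or hormone receptor genes expected to be low, 3 were listed: KRT8, at 244 to 253 FPKM of RNA in AZD0095 libraries and 223 to 239.9 FPKM in DMSO libraries, and at lower levels ERBB2 and EPCAM. Only genes above about 1 FPKM in every library, footprint libraries included, are listed. An unlisted gene may therefore have a low level, or may be missing through a low value in any footprint library, whatever its RNA level. A principal component analysis of footprints placed DMSO replicate 2 far from the other libraries on component 1 (56.1, against -18.9 to 2.95 elsewhere). DMSO replicate 1 was far from the others on component 2 (52.8, against -27.7 to 0.38). In RNA, AZD0095 replicate 1 was the highest library of component 2 (12.2, against -7.9 to 3.18). Because the libraries are not of single cells, fewer cells expressing a gene and less RNA per cell cannot be told apart.

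Promoters are shown for 6 of the genes because 4 of these windows hold a letter sequence that few promoters have. They were taken from RefSeq, build GRCh38.p14, as the 250 bases before an annotated start. The table used here held 11 such windows for 7 of the 8 genes, all but CCL2. Capitals mark GGAATTTCC or the NF-κB consensus, which overlap where both occur, and all sequences read 5′ to 3′ on the strand of the gene. The CXCL8 window is chr4:73740319-73740568, plus strand.
CXCL8: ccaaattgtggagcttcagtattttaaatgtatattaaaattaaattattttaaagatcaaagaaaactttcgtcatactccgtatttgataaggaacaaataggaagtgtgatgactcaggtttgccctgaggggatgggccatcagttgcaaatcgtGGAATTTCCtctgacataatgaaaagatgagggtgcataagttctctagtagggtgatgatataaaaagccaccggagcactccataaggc
The CXCL1 window is chr4:73869143-73869392, plus strand.
CXCL1: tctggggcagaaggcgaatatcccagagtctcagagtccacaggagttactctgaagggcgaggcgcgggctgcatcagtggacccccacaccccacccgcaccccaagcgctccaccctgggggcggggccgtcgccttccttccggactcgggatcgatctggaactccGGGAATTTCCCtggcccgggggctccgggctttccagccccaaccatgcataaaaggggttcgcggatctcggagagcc
The IL6 window is chr7:22726950-22727199, plus strand.
IL6: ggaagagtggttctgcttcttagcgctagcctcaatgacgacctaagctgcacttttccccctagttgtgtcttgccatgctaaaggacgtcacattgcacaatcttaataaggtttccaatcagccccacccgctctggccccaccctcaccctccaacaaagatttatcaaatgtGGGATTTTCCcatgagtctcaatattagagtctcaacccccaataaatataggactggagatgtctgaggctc
The IL11 window is chr19:55370464-55370713, minus strand.
IL11: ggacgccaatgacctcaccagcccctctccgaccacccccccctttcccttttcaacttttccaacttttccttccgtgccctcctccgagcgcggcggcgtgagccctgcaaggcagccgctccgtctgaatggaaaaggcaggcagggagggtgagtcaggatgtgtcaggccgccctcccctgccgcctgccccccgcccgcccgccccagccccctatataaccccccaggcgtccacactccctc
The NFKB1 window is chr4:102501109-102501358, plus strand.
NFKB1: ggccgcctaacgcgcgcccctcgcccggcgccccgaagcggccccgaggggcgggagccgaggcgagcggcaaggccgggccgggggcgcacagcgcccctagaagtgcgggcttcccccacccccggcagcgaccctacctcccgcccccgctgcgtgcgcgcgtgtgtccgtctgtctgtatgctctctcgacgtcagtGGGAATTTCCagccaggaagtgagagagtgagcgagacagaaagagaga
The NFKBIZ window is chr3:101827740-101827989, plus strand.
NFKBIZ: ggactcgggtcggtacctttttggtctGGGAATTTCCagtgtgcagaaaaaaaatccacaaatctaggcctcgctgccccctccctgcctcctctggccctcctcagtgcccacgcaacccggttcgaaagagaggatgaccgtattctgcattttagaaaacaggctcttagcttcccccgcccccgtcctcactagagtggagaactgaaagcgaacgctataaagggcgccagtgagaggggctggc

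Both strands were searched for GGAATTTCC, the NF-κB consensus, the AP-1 type sequence TGANTCA, the C/EBP type sequence TTGCNNAA and TATAAA. GGAATTTCC lay from 91 to 83 bases before the start of CXCL8, from 78 to 70 before that of CXCL1, from 48 to 40 before that of NFKB1 and from 222 to 214 before that of NFKBIZ, and 145 of 35116 RefSeq promoter windows of this length, 0.413%, hold it. The NF-κB consensus, held by 9.96% of windows, was found in the CXCL1, NFKB1 and NFKBIZ windows above, and in IL6 from 73 to 64 bases before the start. It was also present in another NFKBIZ window and in 2 of 3 NFKB2 windows, which are not printed. For NFKB1 and NFKBIZ the printed window is the one that holds GGAATTTCC. That sequence was absent from the other NFKBIZ window, from all 3 NFKB2 windows and from the IL6 and IL11 windows. It was absent too from another NFKB1 window, not printed, which held none of the sequences searched. TGANTCA, held by 6.57% of windows, was found in CXCL8 from 137 to 131 and in IL11 from 96 to 90 bases before the start. TTGCNNAA, held by 9.05%, was found in IL6 from 155 to 148, and TATAAA, held by 10.7%, in CXCL8 from 31 to 26 and in NFKBIZ from 29 to 24. These are matches of letters only. The genes were chosen, and some windows were printed because they hold the sequence. The shares of all windows are therefore a description, and enrichment was not tested. GGAATTTCC was present both at CXCL8 and CXCL1, whose RNA was higher with AZD0095, and at NFKB1, whose RNA was lower.

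The neutrophil-attracting chemokines CXCL8 and CXCL1, both ligands of the receptor CXCR2, had the highest RNA levels of the 8 genes. CXCL8 (ENSG00000169429, chromosome 4 from 73740569 to 73743716) had 245, 201 and 193 FPKM in AZD0095 libraries 1, 2 and 3, against 155, 127 and 125 FPKM in DMSO libraries. CXCL1 (ENSG00000163739, chromosome 4 from 73869393 to 73871308) had 101, 96.7 and 113 FPKM in AZD0095 libraries and 72.4, 76.5 and 72.1 FPKM in DMSO libraries. For both chemokines every AZD0095 library lay above every DMSO library. Replicate 1 was the highest CXCL8 library of each treatment, which was not so for CXCL1. The RNA difference of CXCL8 was 0.65 ± 0.11 on the log2 scale (SE, n = 3 each), and that of CXCL1 was 0.48 ± 0.07. CXCL1 has close paralogs, and how reads shared with them were counted is not given in the sources used here.

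IL6 and IL11 both signal through gp130, IL6 in inflammation and the acute phase response and IL11 in fibrosis and in bone metastasis of breast cancer. IL6 (ENSG00000136244, chromosome 7 from 22727200 to 22731998) had 21.8, 19.1 and 21.5 FPKM in AZD0095 libraries, against 12.2, 13.9 and 14.5 FPKM in DMSO libraries. IL11 (ENSG00000095752, chromosome 19 from 55364382 to 55370463) had 28.9, 32.2 and 33.1 FPKM in AZD0095 libraries and 22.9, 23.3 and 23.7 FPKM in DMSO libraries. Neither gene had overlapping groups, and the DMSO libraries of IL11 lay close together. The RNA difference was 0.59 ± 0.09 for IL6 and 0.41 ± 0.07 for IL11 (log2, SE, n = 3 each). Between the libraries numbered 1 the IL6 difference was 0.79, against a mean of 0.49 between those numbered 2 and 3. IL6 overlaps the antisense gene IL6-AS1, and the sources used here do not say whether counting used the strand; reads of the pair cannot be told apart.

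CCL2, which attracts monocytes through the receptor CCR2, was lower with AZD0095. CCL2 (ENSG00000108691, chromosome 17 from 34255285 to 34257203) had 39.2, 35.9 and 37.9 FPKM in AZD0095 libraries, against 62.2, 68.9 and 61.5 FPKM in DMSO libraries. The groups were far apart relative to their spread, at 37.7 ± 1.70 FPKM with AZD0095 and 64.2 ± 4.08 FPKM with DMSO (SD, n = 3 each). The difference of -0.75 ± 0.07 (log2, SE) was the largest of the 8 in size, and 0.251% of the 6777 genes had an estimate as low or lower.

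The NF-κB subunit genes differed in opposite directions. NFKB2 (ENSG00000077150, chromosome 10 from 102394110 to 102402529), which encodes the p100 precursor of the subunit p52 used by the noncanonical pathway, had 31.8, 31.7 and 31.2 FPKM in AZD0095 libraries and 25.2, 25.5 and 27.3 FPKM in DMSO libraries. NFKB1 (ENSG00000109320, chromosome 4 from 102501359 to 102617302), which encodes the p105 precursor of the subunit p50, had 22.7, 23.5 and 23.9 FPKM in AZD0095 libraries, against 30.9, 31.6 and 28.8 FPKM in DMSO libraries. Neither gene had overlapping groups, and both were among the less variable genes, with a pooled log2 SD within a group of 0.04 for NFKB2 and 0.05 for NFKB1, against a median of 0.10 over all genes. The RNA difference was 0.27 ± 0.06 for NFKB2 and -0.37 ± 0.06 for NFKB1 (log2, SE, n = 3 each). NFKB1 overlaps NFKB1-AS1 and other noncoding genes, whose reads cannot be told apart without strand.

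NFKBIZ (ENSG00000144802, chromosome 3 from 101827990 to 101861022) had the lowest RNA level of the 8 genes. It had 6.21, 6.00 and 6.38 FPKM in AZD0095 libraries and 5.62, 5.06 and 5.76 FPKM in DMSO libraries. The groups did not overlap, but the gap between them was small, and the difference was 0.15 ± 0.08 (log2, SE, n = 3 each), with a 95% interval from -0.04 to 0.34. The 5′ end of the gene overlaps NXPE3, so reads there are uncertain.

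**Figure D1:**
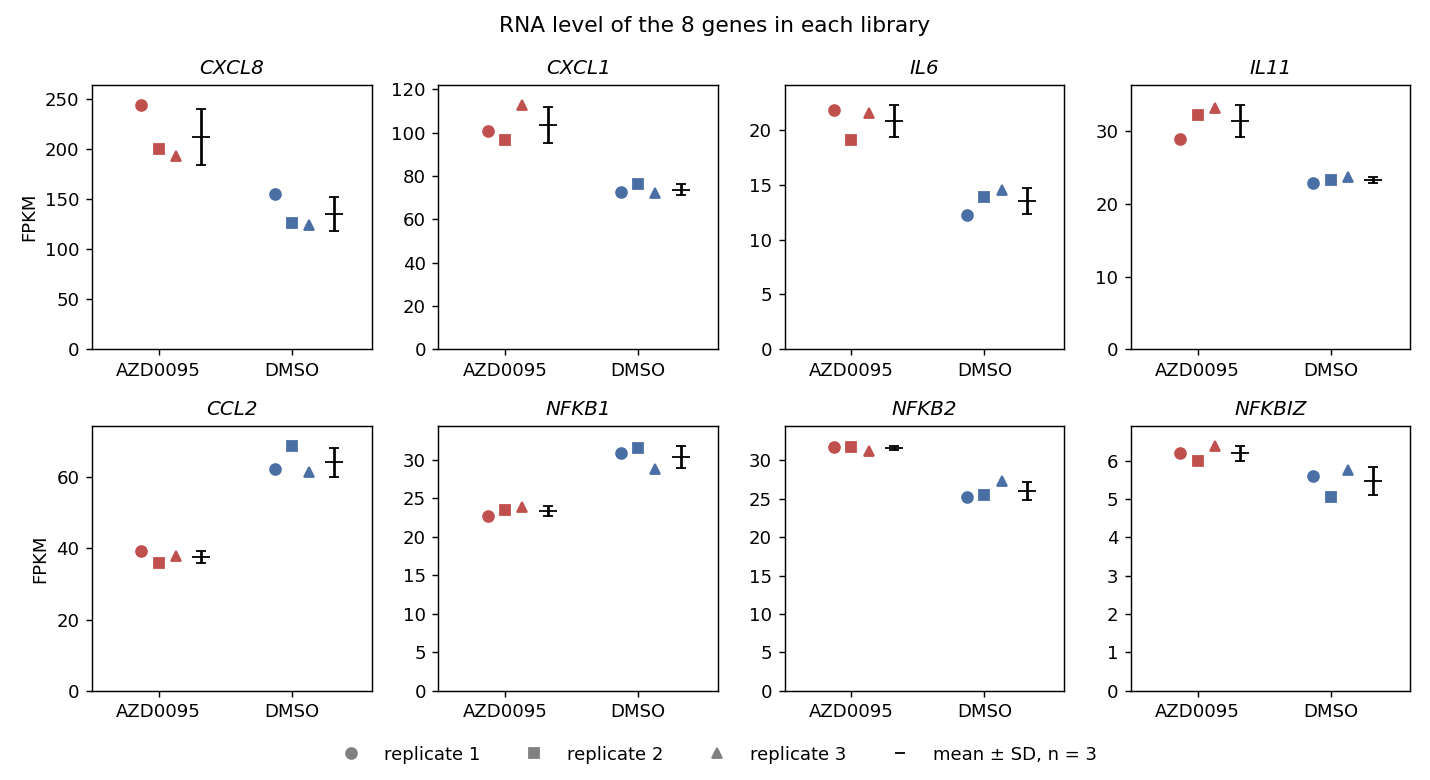
RNA level (FPKM, linear axis from 0) of the 8 genes, with a point for each library, AZD0095 left of DMSO, and the mean ± SD (n = 3) beside the points. The AZD0095 points lie above the DMSO points for 6 genes and below them for CCL2 and NFKB1.

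In RNA, 5 of the 8 genes were called higher (limma adjusted p under 0.05 over 6777 genes) and 2 lower, beside 5.03% and 3.01% of all genes, 8.04% in either direction. These counts come from the contrast by which the genes were chosen and carry no evidence of their own. The groups did not overlap for 6 genes in the higher and 2 in the lower direction, beside 17.7% and 11.5% of all genes. The direction of each of the 8 RNA differences was the same under all 15 other settings of the processing. Some of these settings left every one of the 8 estimates unchanged: no filter, a minimum mean of 5 FPKM, the replicate block and replicate 1 as a batch. The calls were less stable: 1 gene was called higher (CXCL1) and 1 lower (CCL2) without DMSO replicate 2, 2 higher and 1 lower without AZD0095 replicate 2, and 3 higher and 2 lower without AZD0095 replicate 3. Without DMSO replicate 1 or DMSO replicate 3, 4 were called higher and 2 lower, NFKB2 being lost, and without AZD0095 replicate 1 the counts were 5 and 2. With array weights NFKBIZ was called as well, for 6 higher and 2 lower, beside 1585 and 1501 of all 6777 genes. Calls over all genes moved too, to 67 higher and 33 lower without DMSO replicate 2. They were 69 and 47 without AZD0095 replicate 2, 124 and 90 without AZD0095 replicate 3, and 509 and 603 without AZD0095 replicate 1. Without DMSO replicate 1 they were 174 and 106, and without DMSO replicate 3 they were 159 and 90.

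Ratios of the genes within a library show how their relation differed between treatments. The RNA of NFKB2 stood to that of NFKB1 at 1.40, 1.35 and 1.31 in AZD0095 libraries, against 0.816, 0.809 and 0.946 in DMSO libraries. NFKB2 was thus the more abundant of the pair per length in every AZD0095 library and the less abundant in every DMSO library. The RNA ratio of CXCL8 to CCL2 was 6.24, 5.59 and 5.09 in AZD0095 libraries and 2.49, 1.84 and 2.03 in DMSO libraries, and that of IL6 to CCL2 was 0.555, 0.532 and 0.568 in AZD0095 libraries and 0.196, 0.202 and 0.235 in DMSO libraries. CXCL8 and CXCL1 kept a closer ratio, at 2.43, 2.07 and 1.71 in AZD0095 libraries and 2.14, 1.65 and 1.73 in DMSO libraries, and these groups overlapped. A ratio does not depend on how a library was scaled, but it follows from the same RNA differences and is no further evidence.

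In footprints the same ratios were less clear. The ratio of NFKB2 to NFKB1 was 1.02, 1.76 and 1.29 in AZD0095 libraries and 1.06, 0.455 and 0.649 in DMSO libraries, and the groups overlapped through replicate 1. The ratio of CXCL8 to CCL2 was 11.0, 6.00 and 6.09 in AZD0095 libraries, against 1.09, 4.84 and 2.18 in DMSO libraries, with no overlap. CCL2 came to only 4 reads in AZD0095 replicate 1 and 3 reads in DMSO replicate 2. The ratio of IL6 to CCL2 was 1.03, 0.673 and 0.621 in AZD0095 libraries and 0.041, 0.551 and 0.275 in DMSO libraries, also apart. That of CXCL8 to CXCL1 was 5.25, 3.07 and 3.36 in AZD0095 libraries and 2.36, 3.12 and 12.9 in DMSO libraries, and overlapped.

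**Figure D2:**
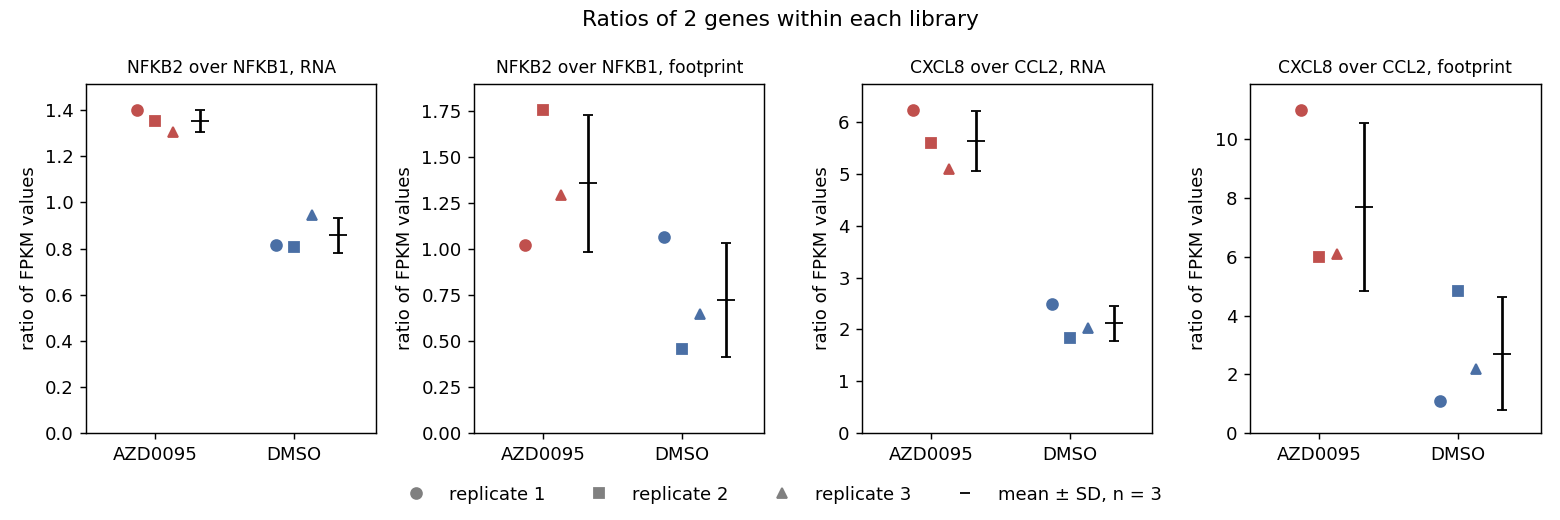
Ratio of the FPKM values of 2 genes within each library (linear axis from 0), for NFKB2 over NFKB1 and CXCL8 over CCL2, in RNA and in footprints, with AZD0095 left of DMSO and the mean ± SD (n = 3) beside the points. Only the footprint ratio of NFKB2 to NFKB1 has overlapping groups among these 4 panels.

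The footprint comparison asked whether ribosome occupancy of these mRNAs differed after 4 h. No gene of 6777 was called in limma (0.0% of genes, lowest adjusted p = 0.31), with 530 genes, 7.82%, at an unadjusted p under 0.05. CXCL8 had 948, 839 and 849 FPKM of footprints in AZD0095 libraries, against 491, 412 and 379 FPKM in DMSO libraries. The groups were well apart, and the pooled log2 SD of the groups, 0.15, was lower than that of all but 3.04% of genes. The difference was 1.04 ± 0.21 (log2, SE, n = 3 each; 95% interval from 0.60 to 1.49), its limma p was 0.00026 before and 0.44 after adjustment over all genes, and it took place 4 among the 6777 genes by p. Leaving out each library in turn gave differences of 0.96 to 1.15. At an implied length of 329 bases the CXCL8 values came to whole reads, within 0.01, in 5 of 6 libraries, at 44, 60 and 140 reads in AZD0095 libraries and 20 and 24 reads in DMSO replicates 1 and 3.

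IL6 footprints had a similar form, with tight AZD0095 libraries. IL6 had 88.6, 94.1 and 86.6 FPKM of footprints in AZD0095 libraries, against 18.3, 46.9 and 47.8 FPKM in DMSO libraries, with no overlap and DMSO replicate 1 the lowest. The difference was 1.35 ± 0.48 (log2, SE; 95% interval from 0.31 to 2.39; limma adjusted p = 0.63), and it was 0.91 without DMSO replicate 1. The IL6 values stand for 12.5, 20.5 and 43.4 implied reads per kilobase in AZD0095 libraries and 2.27, 5.03 and 9.19 in DMSO libraries, so depth differed between treatments beside the level, and its part in the result was not tested.

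CXCL1 footprints had a high estimate that rested on a single library. They were at 181, 274 and 253 FPKM in AZD0095 libraries and at 208, 132 and 29.5 FPKM in DMSO libraries. The groups overlapped, since DMSO replicate 1 lay above AZD0095 replicate 1. The difference was 1.30 ± 0.57 (log2, SE; 95% interval from 0.06 to 2.54; limma adjusted p = 0.63), and it was 0.48 without DMSO replicate 3, whose value came to 2 reads. Between the libraries numbered 1 it was -0.20, against a mean of 2.05 between those numbered 2 and 3.

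IL11 and CCL2 footprints gave no clear direction. IL11 had 78.9, 108 and 164 FPKM of footprints in AZD0095 libraries and 61.8, 205 and 115 FPKM in DMSO libraries, with a difference of -0.02 ± 0.46 (log2, SE; 95% interval from -1.02 to 0.98; limma adjusted p = 1.00). This interval holds both 0 and the RNA difference of IL11, so neither is set apart from the footprint estimate. CCL2 had 86.2, 139.8 and 139 FPKM of footprints in AZD0095 libraries, against 449.8, 85.2 and 174 FPKM in DMSO libraries, with a difference of -0.66 ± 0.51 (95% interval from -1.76 to 0.44; limma adjusted p = 0.79). DMSO replicate 1 was the high CCL2 library and DMSO replicate 2, at 3 reads, the low one. Without AZD0095 replicate 1 the CCL2 difference was -0.43, without DMSO replicate 1 it was -0.03, without DMSO replicate 2 it was -1.23, and between the replicates numbered 2 and 3 alone its mean was 0.20.

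For the subunit genes NFKB2 had 46.7, 52.3 and 59.9 FPKM of footprints in AZD0095 libraries and 44.4, 27.4 and 30.5 FPKM in DMSO libraries. The groups lay next to each other without overlap, with a difference of 0.64 ± 0.46 (log2, SE; 95% interval from -0.36 to 1.65; limma adjusted p = 0.77). At an implied length of 2729 bases these were 18, 31 and 82 whole reads in AZD0095 libraries and 15, 8 and 16 in DMSO libraries. NFKB1 had 45.7, 29.7 and 46.4 FPKM of footprints in AZD0095 libraries and 41.7, 60.1 and 46.9 FPKM in DMSO libraries. The groups overlapped, and the difference was -0.29 ± 0.46 (95% interval from -1.30 to 0.71; limma adjusted p = 0.92), or -0.09 without AZD0095 replicate 2 and -0.15 without DMSO replicate 2.

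NFKBIZ had the largest footprint difference of the 8 genes, which is given as a description. It had 67.4, 48.5 and 50.0 FPKM of footprints in AZD0095 libraries, against 4.40, 40.8 and 5.71 FPKM in DMSO libraries. DMSO replicates 1 and 3 were low, and DMSO replicate 2, the library set apart on component 1, lay near the AZD0095 libraries. The difference was 2.28 ± 0.74 (log2, SE; 95% interval from 0.68 to 3.88), and it ran from 1.73 without DMSO replicate 1 to 3.21 without DMSO replicate 2. The low values correspond to 0.545 and 1.10 implied reads per kilobase in DMSO replicates 1 and 3 and 4.37 in DMSO replicate 2, against 9.51, 10.5 and 25.1 in AZD0095 libraries, so each low value rests on few reads. The pooled log2 SD of the groups was 1.16, higher than that of 93.9% of genes.

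**Figure D3:**
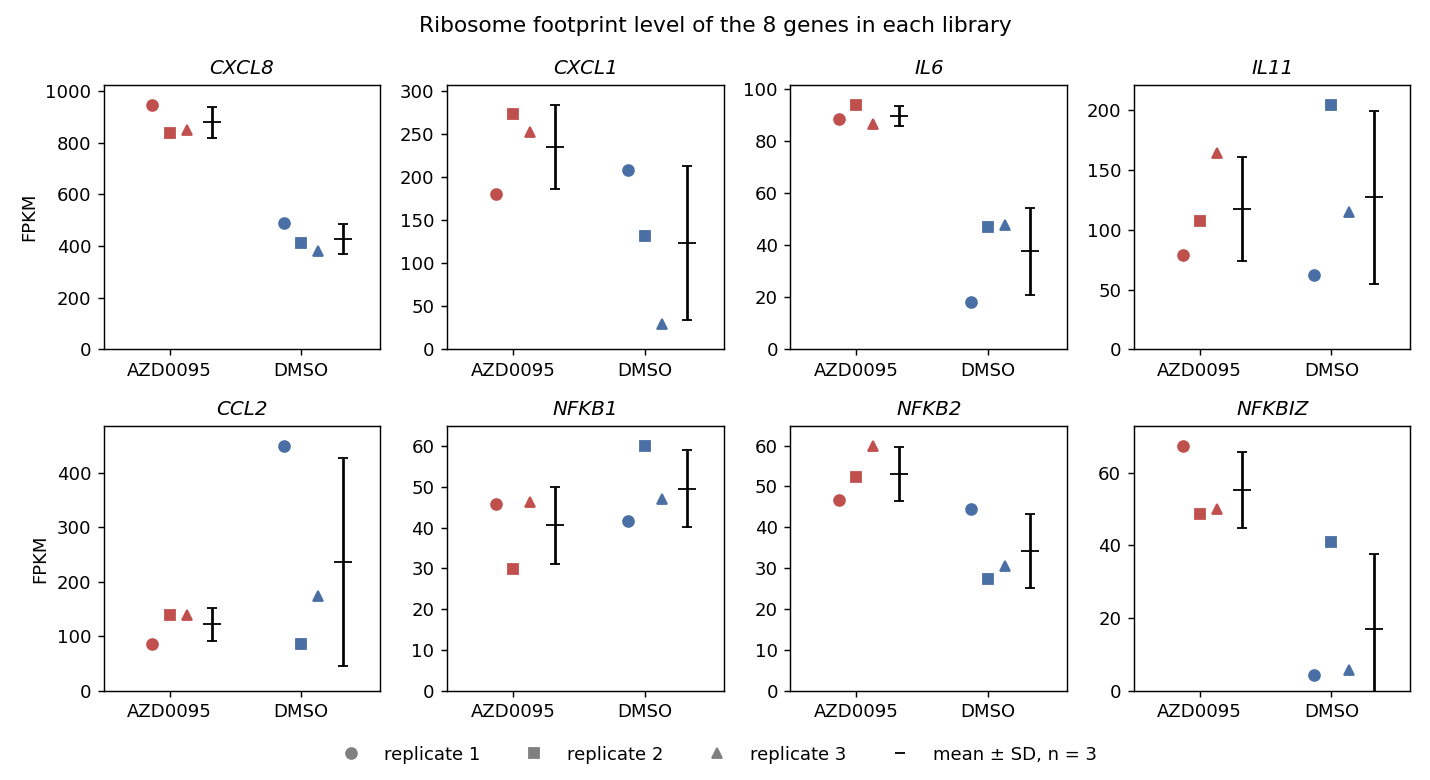
Ribosome footprint level (FPKM, linear axis from 0) of the 8 genes, with a point for each library, AZD0095 left of DMSO, and the mean ± SD (n = 3) beside the points. The groups are apart for CXCL8, IL6, NFKB2 and NFKBIZ and overlap for CXCL1, IL11, CCL2 and NFKB1; the NFKBIZ bar for DMSO is drawn down to 0 only.

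Footprint groups did not overlap, with AZD0095 higher, for 3 of the 7 genes other than NFKBIZ (CXCL8, IL6 and NFKB2), beside 7.19% of all genes. These 3 were among the 5 of the 7 called higher in RNA, and the share over all 341 genes called higher was 13.8%. In the lower direction 0 of these 7 genes had groups apart, beside 5.77% of all genes. The share was 16.7% among the 204 genes called lower in RNA, as CCL2 and NFKB1 were. The footprint difference had the same sign as the RNA difference for 6 of these 7 genes, IL11 being the exception, and for 68.8% of the 545 genes called in RNA and 53.5% of all genes. For CXCL1, CCL2 and NFKB1 that sign was not the same in every pair of same-numbered libraries. On simulated tables of 6777 genes with these spreads, the footprint comparison called 22.5% of genes changed by 2 on the log2 scale and 0.00% of those changed by 1, while the RNA comparison called 98.75% of those changed by 1.

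**Figure D4:**
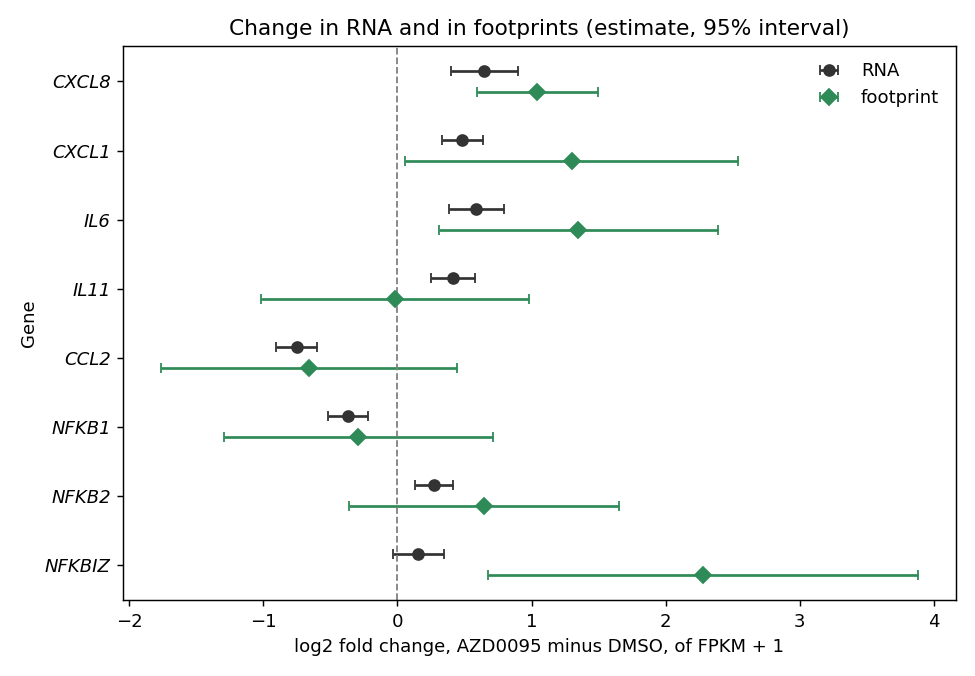
Difference between AZD0095 and DMSO (log2 of FPKM + 1) in RNA (circles) and footprints (diamonds) for the 8 genes, with unadjusted 95% intervals from limma (n = 3 per group). The footprint intervals are wider than the RNA intervals and lie above 0 for CXCL8, CXCL1, IL6 and NFKBIZ. No gene was called in footprints after adjustment, and the NFKBIZ interval is a description only. The CXCL1 groups overlap, and its footprint difference was 0.48 without DMSO replicate 3.

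Footprints relative to RNA, the translational efficiency, are a description here since the RNA values enter them. The labels call the RNA libraries both total and polyadenylated RNA, and which applies could not be settled, which bears on the meaning of the ratio. The log2 ratio of footprint to RNA level was 2.95 with AZD0095 and 0.83 with DMSO for NFKBIZ, at percentile 95.9 of all genes with AZD0095 and 39.2 with DMSO. It was 2.05 with AZD0095 and 1.65 with DMSO for CXCL8, and 2.06 with AZD0095 and 1.30 with DMSO for IL6. For CXCL1 it was 1.16 with AZD0095 and 0.34 with DMSO, and for CCL2 1.63 with AZD0095 and 1.54 with DMSO. IL11 had 1.80 with AZD0095 and 2.23 with DMSO, a difference of -0.43 that was -0.01 without DMSO replicate 2, where that of CCL2, 0.09 with all libraries, was -0.53. The subunit genes had low ratios under both treatments, at 0.72 with AZD0095 and 0.35 with DMSO for NFKB2 and at 0.75 with AZD0095 and 0.67 with DMSO for NFKB1, below the medians over all genes of 1.16 with AZD0095 and 1.10 with DMSO. In the interaction of assay and treatment, limma called 0 of 6777 genes, or 0.0% (578, or 8.53%, at an unadjusted p under 0.05), and the difference in efficiency was 2.12 ± 0.83 for NFKBIZ, 0.82 ± 0.70 for CXCL1, 0.76 ± 0.47 for IL6 and 0.40 ± 0.21 for CXCL8 (log2, SE). Leaving out the RNA and footprint libraries of DMSO replicate 3 together gave 0.02 for CXCL1, leaving out those of DMSO replicate 1 gave 1.40 for CXCL1 and 0.39 for IL6, and CXCL8 stayed between 0.35 and 0.45 without each pair of libraries in turn.

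The order of RNA levels also shifted. With AZD0095 the mean level ran from CXCL8 (213 ± 28.0 FPKM, SD, n = 3) through CXCL1 (103 ± 8.46), CCL2, NFKB2, IL11, NFKB1 and IL6 to NFKBIZ (6.20 ± 0.19). With DMSO it ran from CXCL8 (135 ± 17.1 FPKM) through CXCL1 (73.7 ± 2.47), CCL2, NFKB1, NFKB2, IL11 and IL6 to NFKBIZ (5.48 ± 0.37). Among neighbours in these orders, NFKB2 and IL11 with AZD0095 overlapped in range, and every other neighbouring pair was apart. In footprints CXCL8 was highest under both treatments, at 878 ± 60.1 FPKM with AZD0095 and 428 ± 57.3 FPKM with DMSO. Every pair of neighbours in the DMSO footprint order overlapped in range, while with AZD0095 CXCL8, CXCL1 and NFKB1 each stood apart from their neighbours, as IL6 did from NFKBIZ. NFKBIZ was last in RNA under both treatments and last in footprints with DMSO, but lay above NFKB2 and NFKB1 in mean footprint level with AZD0095, where its range overlapped that of NFKB2.

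For each gene the 3 genes with the most similar RNA profile over the 6 RNA libraries were found by Pearson's r of log2(FPKM + 1), a description that follows the treatment difference. CXCL8 was closest to FNBP1L (r = 0.999), RHPN2 and PSAT1, and genes close to CXCL1 included NDRG3 (r = 0.996) and ARHGEF2. IL6 was closest to KRT19 (r = 0.994), FDFT1 and EPS15L1, and IL11 to STAT2 (r = 0.999), CLK3 and MTA1. CCL2 was closest to RPUSD4 (r = 0.995), TRMU and NCOA5, which were lower with AZD0095 as it was, by -0.37, -0.30 and -0.99 on the log2 scale. NFKB1 was closest to POGLUT1 (r = 0.997), TTC17 and TAF8, NFKB2 to PFKFB3 (r = 0.997), NENF and PPP1R18, and NFKBIZ to MYL6 (r = 0.995), PPP2R1A and COTL1. None of the 8 genes was among the closest 3 of another.

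Other genes of the pathway follow by list. Of 6 other NF-κB family genes and inhibitors measured, 0 were called in limma, with a median RNA difference of -0.04 against 0.01 over all genes. At an unadjusted limma p under 0.05, 2 were higher and 2 lower, beside 14.1% and 10.0% of all genes. With the replicate number as a block 2 were called higher and 2 lower, beside 856 and 766 of all 6777 genes. NKRF, a repressor of NF-κB (-0.33), was called lower with median centring or quantile normalization. RELA, the main activating subunit, was at 44.3 ± 0.45 FPKM with AZD0095 and 39.7 ± 2.42 FPKM with DMSO (log2 difference 0.16 ± 0.06, adjusted p = 0.17), and RELB, the partner of p52, was at 11.9 ± 0.86 FPKM with AZD0095 and 11.7 ± 0.31 FPKM with DMSO (0.02 ± 0.08, adjusted p = 0.89). NFKBIA, the inhibitor IκBα and itself an NF-κB target, was at 38.8 ± 0.18 FPKM with AZD0095 and 44.0 ± 2.61 FPKM with DMSO (-0.18 ± 0.06, adjusted p = 0.13). Of 24 upstream signalling genes 1 rose and 1 fell, beside 5.03% and 3.01% of all genes (median 0.01): RNF31, a ligase that makes linear ubiquitin chains, by 0.47, and the kinase RIPK1, which acts below the TNF receptor, by -0.49. Of 7 other cytokines measured, IL32 alone rose, by 0.40 (median 0.04). Of 13 other NF-κB target genes CD83 (0.30) and IER3 (0.50) rose and SQSTM1, an autophagy receptor, fell (-0.25), with a median of -0.07. Only 12 of the 35 cytokines on the list, with those described above, and 13 of the 25 target genes were measured. CXCL2, CXCL3, CCL20, IL1A, IL1B, PTGS2, TNFAIP3 and BIRC3 were among those without values, so neither class can be judged as a whole. The other lists were also incomplete.

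The lists of receptors and transcription factors follow, and differences between lists were not tested. Of 18 cytokine receptor and JAK-STAT genes 5 rose and 0 fell, beside 5.03% and 3.01% of all genes (median 0.05; 2 were lower at an unadjusted p under 0.05, beside 10.0% of all genes): TNFRSF1A, a receptor for TNF, by 0.48, the interferon gamma receptor chain IFNGR2 by 0.42, STAT2 by 0.41, STAT5B by 0.36 and PIAS3, an inhibitor of STAT3, by 0.29. IL6ST, which encodes gp130, was at 54.8 ± 6.72 FPKM with AZD0095 and 64.3 ± 1.69 FPKM with DMSO (-0.23 ± 0.08, limma adjusted p = 0.14), and STAT3, its main effector, was at 49.5 ± 3.03 FPKM with AZD0095 and 44.9 ± 0.14 FPKM with DMSO (0.13 ± 0.06, adjusted p = 0.23). Of 18 transcription factors and cofactors known at cytokine genes 6 rose and 0 fell, beside 5.03% and 3.01% of all genes (median 0.18). At an unadjusted p under 0.05, 10 were higher and 0 lower, beside 14.1% and 10.0% of all genes. CEBPB, a factor that binds the IL6 promoter, rose most, at 18.0 ± 0.47 FPKM with AZD0095 and 9.29 ± 0.30 FPKM with DMSO (0.89 ± 0.07, adjusted p = 0.00037), followed by the AP-1 member JUNB (0.48), IRF3 (0.40), JUND (0.37), ATF4 (0.36) and the elongation kinase CDK9 (0.32). Of 26 genes for binding and decay of AU-rich mRNAs 2 rose, BTG1 (0.40) and CNOT8 (0.35), and ZFP36L2, which promotes decay of such mRNAs, fell (-0.57), with a median of -0.01. ZFP36L1 was at 62.4 ± 2.60 FPKM with AZD0095 and 62.0 ± 1.55 FPKM with DMSO (0.01 ± 0.05, adjusted p = 0.93).

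These lists were drawn up with earlier results of these data known, so their counts are not independent evidence. Of the 20 list genes called, CEBPB, JUNB, ATF4, IER3 and ZFP36L2 kept their RNA call without each library in turn. The other 15 all lost it without DMSO replicate 2 (limma adjusted p from 0.054 to 0.17), and 14 of them, all but RIPK1, lost it without AZD0095 replicate 2 (0.055 to 0.14). Without AZD0095 replicate 3 the call was lost for 11 (0.056 to 0.11), without DMSO replicate 3 for 10 (0.050 to 0.091), without DMSO replicate 1 for 7 (0.054 to 0.093) and without AZD0095 replicate 1 for 0. Of 108 measured list genes 0 were called in footprints by limma. At an unadjusted p under 0.05, 3 were higher and 4 lower, beside 4.1% and 3.72% of all genes. NFKBIA was among those lower, at -0.78 ± 0.32 (log2, SE; limma adjusted p = 0.63). RELB was at -0.80 ± 0.51 (limma unadjusted p = 0.14) and ZFP36L2 at -0.59 ± 0.53.

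**Figure D5:**
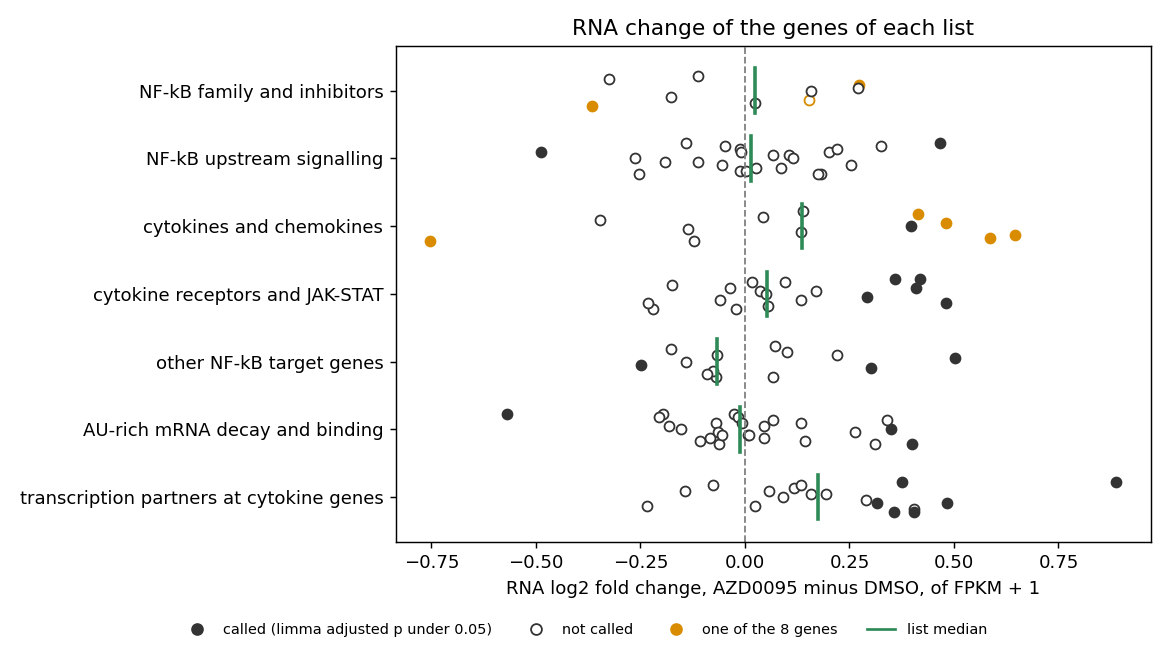
RNA difference between AZD0095 and DMSO (log2 of FPKM + 1) for each measured gene of 7 lists, with filled points for genes called in limma, orange for the 8 genes described here and a green line for the list median. The 8 genes spread from -0.75 to 0.65, and the filled points of the transcription partner list lie on the positive side.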

How the data were processed

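RNA-seq and ribosome profiling libraries were grouped by the treatment and assay in the labels. The authors deposited FPKM values per gene in a table for each library. The tools fastp, STAR and Bowtie2 and the build hg38 are credited to the submitters' processing notes. Not given in the sources used here are their roles and versions, the counter of reads and its use of strand, the gene annotation and how FPKM was computed. The tables shared 6785 entries, all of at least 1.002 FPKM, and 6777 genes remained after 8 repeated entries were removed.

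Values were transformed as log2(FPKM + 1), which makes changes of low genes look smaller than they are, and a filter of a mean FPKM of at least 1 removed no gene. AZD0095 and DMSO were compared in each assay with limma 3.58.1 (R 4.3.3), two-sided, with moderated and trended variances, and translational efficiency as the interaction of assay and treatment over all 12 libraries. P-values were adjusted over all genes by the Benjamini-Hochberg method, with calls made where the adjusted p was under 0.05. The steps were tested on simulated data. Footprint depth was recovered from values that are whole multiples of 1 read, and these steps recovered the depth of 6 of 6 simulated libraries. It covers counting error only, as reads are not stated to carry molecular identifiers.

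The 8 genes and the 7 gene lists were chosen with earlier results of these data known. From each list the genes called were named, up to 6 by p, with the families of RELA, RELB, IL6ST, STAT3 and ZFP36, and for each of the 8 genes the 3 genes of highest r, of which 1 is not reported here. NFKBIA and NKRF were named in addition after their values were seen. Positions and promoters came from RefSeq tables of GRCh38.p14 (hg38).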

Additional observations from a re-analysis of the deposited data

How the results depend on the processing

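Each comparison was repeated under 15 other settings: a pseudocount of 0.1, a minimum mean of 5 FPKM, no filter, median centring, quantile normalization, array weights, the replicate number as a block, replicate 1 as a batch, each library left out, and, chosen after seeing the data, replicates 2 and 3 alone. The count of genes called in RNA, 545, was 1622 with the replicate block, 1660 with replicate 1 as a batch, 3086 with array weights (which ran from 0.256 to 6.26) and 1395 with replicates 2 and 3 alone, and from 100 to 1112 when a library was left out. The share of these calls that were higher, 62.6%, was 52.8%, 52.7%, 51.4% and 47.0% under those 4 settings and 45.8% without AZD0095 replicate 1. No gene was called in limma in footprints or translational efficiency under any setting, and the array weights for translational efficiency stopped before convergence. The footprint difference of IL11, -0.02, was 0.10 with array weights and from -0.45 to 0.40 when a library was left out, and that of CCL2, -0.66, was 0.20 with replicates 2 and 3 alone; the cause was not tested.

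Same-numbered libraries deviated together in RNA by r = 0.62, 0.086 and 0.49 for numbers 1, 2 and 3, and in footprints by 0.0088, -0.022 and 0.091. The labels do not say what the numbers share, and the main comparison did not take them to pair the samples. In RNA, AZD0095 replicates 1 and 3 each correlated best with the DMSO library of the same number, a shared part that the main RNA p-values leave out. AZD0095 replicate 2 correlated best with DMSO replicate 3 (0.30) in RNA. With the replicate block 5 of the 8 genes were called higher and 2 lower in RNA, as without it, and the list of transcription partners had 10 calls in place of 6. With the observed spread and 3 libraries per group, simulated footprint changes of 1 on the log2 scale were not called; depth was not varied there.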
